A study of Homo sapiens with 10 samples.

Results

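A group of 10 genes for secreted signals of epithelial cells was followed through glutamine starvation of AsPC-1, an established human cell line of pancreatic ductal adenocarcinoma. They were CXCL1, CXCL2, CXCL3, CXCL5, CXCL8, CCL20, LIF, IL32, IL18 and IL1A. They were taken by symbol, and all 10 were found among the 36498 genes of the deposited table. The study compared 5 libraries from cells in complete RPMI medium (control) with 5 from cells in glutamine-free RPMI with dialysed serum (starved), after 24 h. Both groups are the same cell line, with no genetic change named, and no source says whether the replicates were separate cultures, so p-values measure the spread between these libraries, which may be technical. The labels do not make clear whether the control serum was dialysed too; if it was not, loss of glutamine and dialysis cannot be told apart.

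CXC chemokines that carry a glutamate-leucine-arginine motif ahead of their paired cysteines (CXCL1, CXCL2, CXCL3, CXCL5 and CXCL8) bind the receptor CXCR2 and draw neutrophils, while CCL20 binds CCR6 on dendritic cells and on lymphocytes. Their genes are classic targets of NF-kB, and their messenger RNAs are short-lived through AU-rich elements. IL1A and IL18 belong to the interleukin-1 family, IL32 is a cytokine with no rodent counterpart, and LIF signals through LIFR and IL6ST to the transcription factor STAT3.

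The libraries were shallow, with 141763 to 474619 counts in control and 164008 to 593248 in starved cells, so that a single count was worth 1.69 to 7.05 CPM (counts scaled to a library total of 1000000). Epithelial markers were present, with EPCAM at 1086 ± 123 CPM in control cells and 433 ± 44.5 CPM in starved ones (SD, n = 5 each). The epithelial list as a whole summed to 12339 to 13414 CPM per control library and 2683 to 2961 CPM per starved library. Of its 8 tested markers 5 were lower and 0 higher, beside 26.1% of all tested genes called lower. Most of the fall in the sum came from KRT8 (means of 4075 and 244 CPM in control and starved cells) and KRT18 (5734 and 1341 CPM). KRT7, CDH1 and CLDN4 were not called, and MUC1 had 1 count over all libraries. The part of these and of the following marker lists in the results below was not tested. Leukocyte markers summed to 96.9 to 143 CPM per control library and 74.4 to 127 CPM per starved library, mostly from LYZ, which was lower in starved cells, and CD68, which was higher, while PTPRC, the pan-leukocyte marker, had 2 and 1 counts over the groups and CD79A had 0. Fibroblast markers summed to 84.6 to 157 CPM per control library and 26.5 to 37.2 CPM per starved library, almost wholly from LUM, with COL3A1, DCN and PDGFRA at 0. Of 8 endothelial markers 4 (CDH5, TEK, CLDN5 and TIE1) were at 0, and the list summed to at most 10.1 CPM per control library and 54.9 CPM per starved library.

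The promoters are shown because all CXC members have the same short motif there, those with clear rises and those without. RefSeq gave promoter windows (300 bases, from 250 before to 50 after the start) for 8 of the 10 members. The letters GGAATTTCC, the core of an NF-kB site, occur on either strand in 0.461% of 35116 such windows, and they occur in those of CXCL1, CXCL2, CXCL3, CXCL5 and CXCL8. With any base at the fourth position (GGANTTTCC, which includes the former) the share is 1.64%, and IL32 joins with 2 matches. The AP-1 motif TGANTCA, held by 7.71% of windows, occurs in CXCL8 and IL1A. The cyclic AMP response motif TGACGTCA, held by 1.85%, occurs in IL32. The amino acid response motif TGATGNAA, held by 3.62% of windows, has 0 matches in the members' windows. These motifs were chosen with the members known, and a match is a description of the letters and shows neither a bound site nor a cause. The windows of CCL20 and IL1A and a second window of IL32 are not printed, and none of them holds GGANTTTCC. Both IL32 matches lie in its printed window. The 140 bases before the start follow, 5′ to 3′ on the gene's strand in build GRCh38.p14 (the submitters' processing notes name hg19), with GGANTTTCC, TGANTCA and TGACGTCA in capitals.
CXCL8, chr4:73740429-73740568, plus strand: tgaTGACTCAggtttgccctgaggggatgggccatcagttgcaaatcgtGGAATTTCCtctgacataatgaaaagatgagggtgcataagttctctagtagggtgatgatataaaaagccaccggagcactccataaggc
CXCL3, chr4:74038690-74038829, minus strand: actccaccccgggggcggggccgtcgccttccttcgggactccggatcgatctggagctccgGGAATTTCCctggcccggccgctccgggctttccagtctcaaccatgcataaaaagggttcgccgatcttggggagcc
CXCL2, chr4:74099196-74099335, minus strand: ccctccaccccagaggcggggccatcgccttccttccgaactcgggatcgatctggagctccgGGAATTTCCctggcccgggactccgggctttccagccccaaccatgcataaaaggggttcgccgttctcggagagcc
CXCL1, chr4:73869253-73869392, plus strand: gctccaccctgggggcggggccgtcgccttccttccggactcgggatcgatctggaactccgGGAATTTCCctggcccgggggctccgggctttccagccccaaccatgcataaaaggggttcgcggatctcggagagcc
CXCL5, chr4:73998678-73998817, minus strand: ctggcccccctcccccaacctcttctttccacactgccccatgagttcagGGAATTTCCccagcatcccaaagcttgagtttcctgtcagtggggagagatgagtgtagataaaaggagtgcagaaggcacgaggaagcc
IL32, chr16:3065263-3065402, plus strand: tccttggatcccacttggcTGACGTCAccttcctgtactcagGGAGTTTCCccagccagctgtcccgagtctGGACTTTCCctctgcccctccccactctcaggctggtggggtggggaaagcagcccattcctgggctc

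The capitalised NF-kB core lies 91 to 83 bases before the start in CXCL8, 90 to 82 in CXCL5, 78 to 70 in CXCL1 and CXCL3 and 77 to 69 in CXCL2. The windows of CXCL1, CXCL2 and CXCL3 are near copies of each other, at 88% to 91.5% identity, whereas CXCL8 matches the other 4 at 44.3% to 48.5%. A shared motif among CXCL1, CXCL2 and CXCL3 is therefore not 3 independent matches.

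Glutamine-starved cells carried more CXCL8, CXCL3, CXCL2 and IL32 transcript and less IL18 transcript than control cells. CXCL8 was near the detection limit in control cells and at 55.8 to 79.6 CPM in starved cells, and IL18 fell 2.94-fold. LIF and CXCL5 were tested and not called, and CXCL1, CCL20 and IL1A were too low for the main test. In bulk libraries, a change in the number of cells that carry a transcript and a change in its amount per cell cannot be told apart. The fit covered 11202 genes whose mean over the 10 libraries reached 5 CPM (limma-trend on log2(CPM + 1), Benjamini-Hochberg adjustment over all of them, threshold 0.05).

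Of the 10 members 7 passed that filter, of which 4 were called higher and 1 lower. Over all tested genes 17.2% were called higher and 26.1% lower. CXCL2, CXCL3, CXCL5, CXCL8 and IL32 passed the filter only through the starved libraries, since each had a control mean below 5 CPM. A gene of that kind could enter the test only by being higher in starved cells, so the count of 4 gives no weight to the set, and each gene is read from its own values. Control and starved values did not overlap in CXCL8, CXCL3 and IL32, all higher in starved cells, and in IL18, lower. Over all tested genes 12.5% showed such a gap with starved higher and 17.9% with starved lower. The median log2 change over all tested genes was -0.22, and quantile normalization moved it by 0.21.

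**Figure D1:**
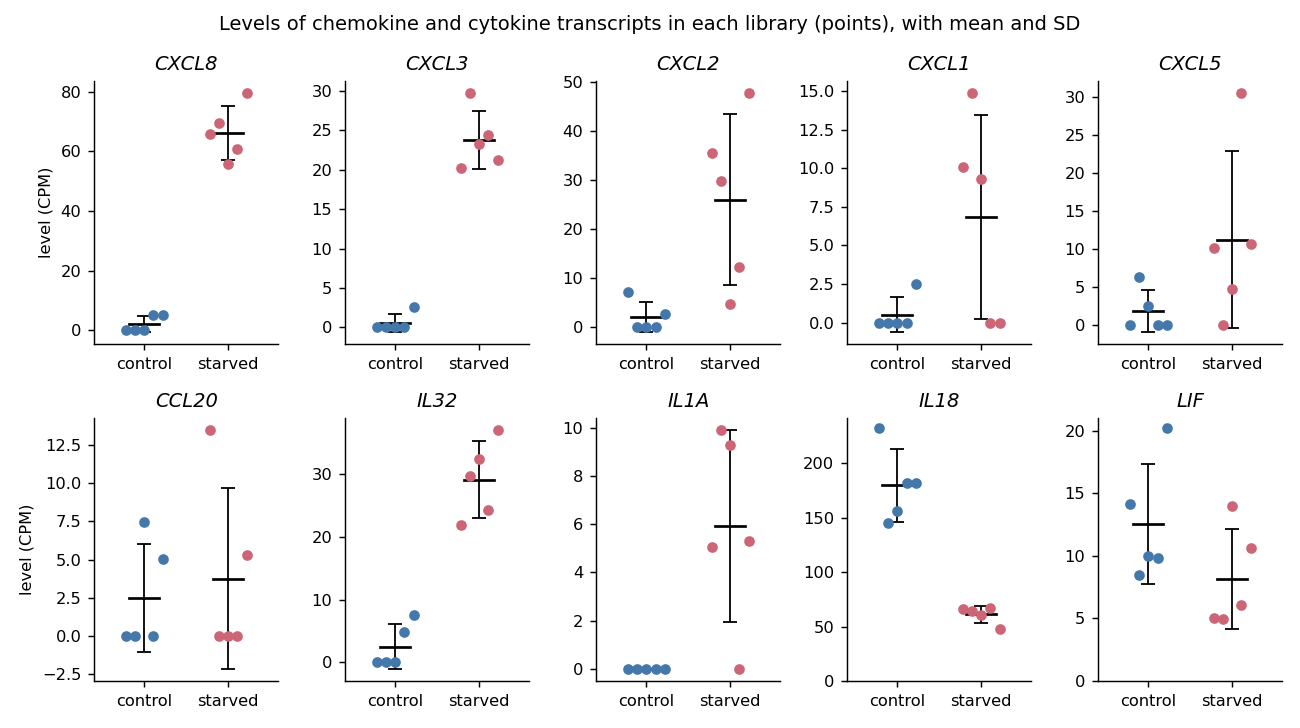
Level of each of the 10 transcripts in CPM (linear axes, a separate scale per gene) in the 5 control and 5 starved libraries. Points are libraries, the bar is the mean and the whisker is the SD. The CXCL8 points lie at 0 to 5.06 CPM (control) and 55.8 to 79.6 CPM (starved), and the IL18 points at 145 to 233 and 47.8 to 67.1 CPM.

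Among the neutrophil-attracting chemokines, CXCL8 (ENSG00000169429.10), which encodes interleukin-8, was at 0, 0, 0, 4.92 and 5.06 CPM in control replicates 1 to 5. Starved replicates 1 to 5 had 65.7, 69.4, 55.8, 61.0 and 79.6 CPM. The lowest starved library was thus far above the highest control library. The log2 change was 5.03 (SE 0.65, limma adjusted p = 2.1e-06), and CXCL8 was among the 19 of 11202 tested genes with a rise of at least that size. As the control group held 3 counts against 90 in starved cells, the pooled ratio (starved over control CPM) of 35.6 has a wide interval (exact binomial, 95%, 11.8 to 176). This interval, like those below, covers counting error only.

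CXCL3 (ENSG00000163734.4), a neutrophil attractant close in sequence to CXCL1 and CXCL2, was at 0 in control replicates 1 to 4 and at 2.53 CPM in control replicate 5. In starved replicates 1 to 5 it was at 20.2, 29.8, 23.2, 24.4 and 21.2 CPM. Its starved libraries lay close together and apart from every control library. The log2 change was 4.25 (SE 0.70, limma adjusted p = 4.1e-05), from 1 and 31 counts, a pooled ratio whose 95% interval starts at 6.13. None of the 50-base stretches in the last 500 bases of its transcript occurs in another gene's transcript (GENCODE v29), CXCL1 and CXCL2 included.

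CXCL2 (ENSG00000081041.8), another ligand of CXCR2, was at 7.05, 0, 0, 0 and 2.53 CPM in control replicates 1 to 5. After starvation the values for replicates 1 to 5 were 35.4, 29.8, 4.65, 12.2 and 47.8 CPM. The groups overlapped, because starved replicate 3, with 1 count, lay below control replicate 1, also with 1 count. CXCL2 was nevertheless called, with a log2 change of 3.43 (SE 0.82, limma adjusted p = 0.00187), and the pooled ratio was 23.2 (95% interval 5.99 to 198). Of the 50-base stretches in the last 500 bases of its transcript 10.2% also occur in CXCL1, so a part of the reads of these genes may not be assignable.

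CXCL1 (ENSG00000163739.4), also a ligand of CXCR2, was at 0 in control replicates 1 to 4 and at 2.53 CPM in control replicate 5. In starved replicates 1 to 5 it was at 10.1, 14.9, 9.30, 0 and 0 CPM. The starved group was split, with 3 libraries above every control library and 2 at 0. Its mean of 3.68 CPM was below the filter, and the two-sided exact permutation p was 0.167. The pooled ratio, from 1 and 11 counts, was 13.1 (95% interval 1.90 to 562). edgeR's quasi-likelihood test on the recovered counts of all genes, chosen after seeing the data, did call it (adjusted p = 0.0240), so the outcome for CXCL1 depends on the test.

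CXCL5 (ENSG00000163735.6), a further ligand of CXCR2, was at 0, 6.32, 2.49, 0 and 0 CPM in control replicates 1 to 5. The 5 starved libraries, in the same order, had 10.1, 0, 4.65, 30.5 and 10.6 CPM. The groups overlapped, and the starved mean rested most on replicate 4. It was not called, with a log2 change of 1.96 (SE 0.94, 95% interval 0.00 to 3.92, limma adjusted p = 0.0984). edgeR on the same genes called it (adjusted p = 0.0267), as did limma after quantile normalization (adjusted p = 0.0245) and without starved replicate 2 (adjusted p = 0.0204), but edgeR on all genes with a count did not (adjusted p = 0.0795). Without starved replicate 4 it fell below the filter and was not tested.

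**Figure D2:**
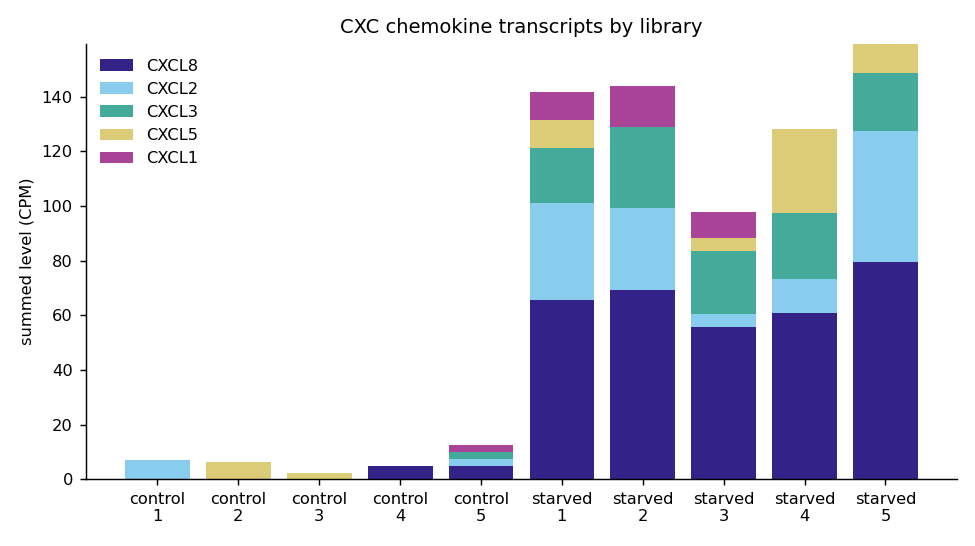
Summed level in CPM of the 5 CXC chemokine transcripts in each library, stacked by gene from a baseline of 0. The sums run from 2.49 to 12.6 CPM in control and from 97.6 to 159 CPM in starved libraries.

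Together these 5 CXC transcripts summed to 2.49 to 12.6 CPM in control and to 97.6 to 159 CPM in starved libraries, which do not overlap. Starved replicates 1 and 2 were alike in the sum at 142 and 144 CPM, although replicate 1 held 593248 counts and replicate 2 held 201642. Starved replicates 3 and 5, with 215121 and 188405 counts, lay further apart at 97.6 and 159 CPM. A part of depth in these sums was not tested. CXCL8 gave 90 of the 185 CXC counts in starved cells, 48.6% (Wilson 95% interval 41.5% to 55.8%). In each starved library it gave between 46.4% and 57.1%, from 21 to 84 CXC counts. In control cells CXCL8 gave 3 of 11 CXC counts, too few to compare the groups. These shares are of 3′ end counts, which were not scaled by transcript length. On chromosome 4, RefSeq places 9 CXC family genes in a row from CXCL8 to CXCL2, and the 5 members are among them. CXCL6 and PF4, which lie between members there, were at 0 in all libraries; with a floor of 3 counts over a group this allows up to 1.85 CPM for control and 2.20 CPM for starved cells.

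CCL20 (ENSG00000115009.11), the ligand of CCR6, was at 0, 0, 7.46, 0 and 5.06 CPM in control replicates 1 to 5. In starved replicates 1 to 5 it was at 13.5, 0, 0, 0 and 5.31 CPM. The groups overlapped widely, with 3 libraries of each at 0. The two-sided exact permutation p was 0.841. The pooled ratio of 2.14 had a 95% interval of 0.643 to 8.12, which holds both falls and rises.

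Among the cytokines, IL32 (ENSG00000008517.16), an inducer of other inflammatory cytokines, was at 0, 0, 0, 4.92 and 7.58 CPM in control replicates 1 to 5. Starved replicates 1 to 5 had 21.9, 29.8, 32.5, 24.4 and 37.2 CPM. Every starved library exceeded every control library. The log2 change was 3.76 (SE 0.74, limma adjusted p = 0.000311), and the pooled ratio from 4 and 37 counts was 11 (95% interval 3.95 to 42.4). In the last 500 bases of its longest coding transcript 17.7% of the 50-base stretches also occur in the small nuclear RNA pseudogene RNU1-125P.

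IL1A (ENSG00000115008.5), which encodes interleukin-1 alpha, an alarmin released by damaged epithelium, was at 0 in all 5 control libraries. In starved replicates 1 to 5 it was at 5.06, 9.92, 9.30, 0 and 5.31 CPM. It was thus seen in 4 of 5 starved libraries, with 1 to 3 counts in each. With 0 against 8 counts, the exact binomial 95% interval of the pooled ratio started at 2.03. The two-sided exact permutation p was 0.0476, which became 0.212 after adjustment over all 25865 genes with a count. Without a filter limma did not call it (adjusted p = 0.0607), whereas edgeR on all genes with a count did (adjusted p = 0.0112).

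IL18 (ENSG00000150782.11), which encodes an interferon-gamma inducing cytokine stored as a precursor in epithelial cells, moved the other way. It was at 233, 145, 157, 182 and 182 CPM in control replicates 1 to 5. The 5 starved libraries, in the same order, had 65.7, 64.5, 60.4, 67.1 and 47.8 CPM. Every starved library lay below every control library, and the starved values were close together. The mean fell from 179.8 ± 33.7 to 61.1 ± 7.85 CPM (SD, n = 5 each), with a log2 change of -1.53 (SE 0.18, limma adjusted p = 5.5e-07). Of all tested genes 17.7% had a lower log2 change.

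The transcripts whose levels followed IL18 most closely over the 10 libraries, among 7004 other genes whose mean reached 20 CPM, were SCP2 (Pearson r = 0.99), which encodes a sterol carrier protein, MASTL (r = 0.99), a mitotic kinase, and PHF14 (r = 0.99), a nuclear PHD finger protein. These libraries share the group difference, so such values describe likeness over both groups together. SCP2, for example, averaged 94.5 ± 27.0 CPM without and 16.2 ± 3.85 CPM with starvation.

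LIF (ENSG00000128342.4), a cytokine of the interleukin-6 family that pancreatic cancer cells and their stroma secrete, was at 14.1, 8.43, 9.94, 9.84 and 20.2 CPM in control replicates 1 to 5. In starved replicates 1 to 5 it was at 5.06, 4.96, 13.9, 6.10 and 10.6 CPM. The groups overlapped. The log2 change was -0.60 (SE 0.58, 95% interval -1.81 to 0.61, limma adjusted p = 0.424), an interval that holds both falls and small rises.

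**Figure D3:**
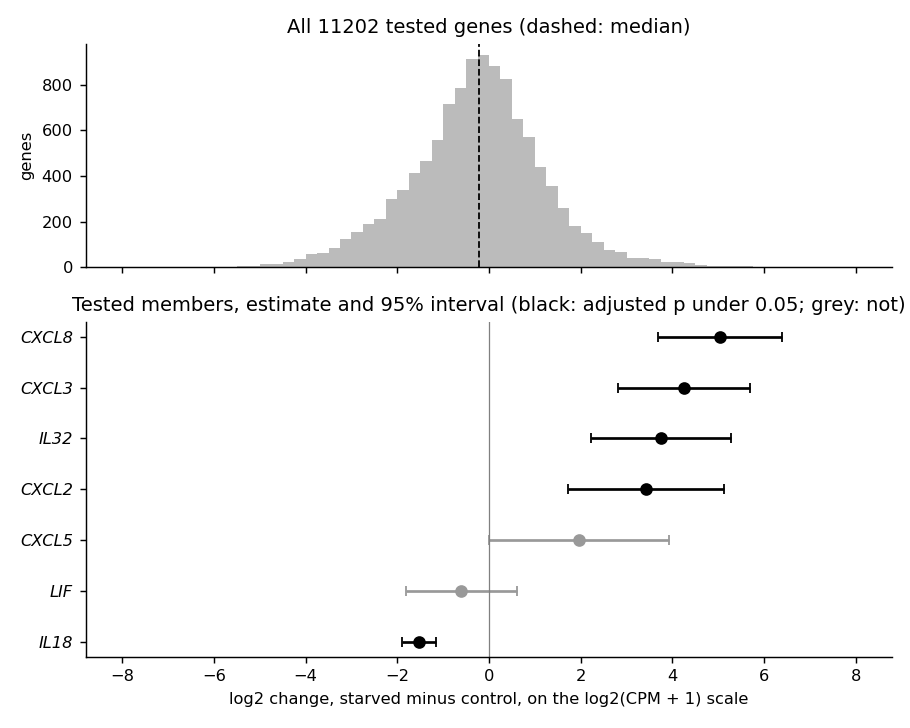
Top, the log2 changes (starved minus control, log2(CPM + 1) scale) of all 11202 tested genes, with the median of -0.22 dashed. Bottom, the 7 tested members with their 95% intervals, on the same axis; CXCL8 lies at 5.03, IL18 at -1.53, and the intervals of LIF and CXCL5 reach 0.61 and 3.92 at their upper ends.

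The exact permutation test was also run on every gene with a count, so that all 10 members could be included. Unadjusted p-values were below 0.05 for 6 of the members (CXCL2, CXCL3, CXCL8, IL32, IL18 and IL1A), against 22.4% of all 25865 genes. Only 11202 of these genes passed the filter of the main test, and a gene seen in few libraries cannot reach such a p. The 22.4% is held down by such genes, so the count of 6 gives no weight to the set. CXCL3, CXCL8, IL32 and IL18 reached 0.00794, the smallest p that 5 against 5 libraries allow. After adjustment over all genes 0 members passed, and 0 genes of the whole table did, because the smallest p became 0.0590; limma, as given above, called 5 members.

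Detection differed between libraries. Starved libraries had counts for 7 to 10 of the 10 members and control replicates 1 to 4 for 3 or 4 of them. Control replicate 5 had counts for 8, although its depth of 395645 was below those of control replicates 2 and 3 (474619 and 402351), in which 3 and 4 members were seen. The single control counts of CXCL1 and CXCL3 both came from that library.

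Copies of ATTTA, the core of AU-rich decay elements, were counted on the sense strand in the last 800 bases of the longest coding transcript of each gene (GENCODE v29), a stretch that can include coding bases. CXCL2 had 10, CXCL3 and CXCL8 had 7 each, CXCL1 and LIF 5 each, CXCL5, CCL20 and IL1A 4 each, IL18 had 1 and IL32 had 0. The median over 18756 protein-coding genes was 1. At least 7 copies were found in 1.22% of those genes and at least 10 in 0.0906%. Whether these copies have a part in the changes of the transcripts was not tested.

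Receptors for the members were compared from a list with 10 measured genes. Of the 4 tested 3 were called higher and 0 lower, with a median log2 change of 1.70 beside -0.22 for all tested genes, of which 17.2% were called higher. IL18R1 passed the filter only through the starved libraries and could be called only as higher; without it 2 of 3 were higher. IL18R1, the ligand-binding chain of the interleukin-18 receptor, was at 0 to 5.06 CPM in control and at 86.0 to 122 CPM in starved libraries. Its groups were far apart, with 5 and 129 counts and a log2 change of 4.91 (SE 0.52, limma adjusted p = 1.1e-07), opposite in direction to that of IL18. Its partner chain IL18RAP was at 0 in all libraries. IL6ST, the gp130 chain that LIF and interleukin-6 share, rose from 65.5 ± 17.3 to 280.5 ± 29.3 CPM without overlap (limma adjusted p = 3.5e-09), while LIFR was not called. The third called receptor was IL1RAP, a chain of the interleukin-1 receptor, named after its values were seen. CXCR1 and CXCR2, the receptors of CXCL8, had 1 count each over all libraries and CCR6 had 0, so the chemokine receptors were at or below the floor.

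Among genes that mature, release or block interleukin-1 and interleukin-18, 1 of 5 tested was higher and 4 were lower (median log2 change -1.59), beside 17.2% and 26.1% of all tested genes. GSDMD and PYCARD passed the filter only through the control libraries; of the 3 other genes 1 was higher and 2 were lower (median -0.70). GSDMD, the pore former through which processed interleukins leave the cell, went from 45.9 ± 7.61 CPM down to 2.73 ± 2.59 CPM, with 72 and 4 counts and a log2 change of -4.06 (SE 0.65; adjusted p by limma = 3.2e-05). The calpains CAPN1 and CAPN2, proteases of the family that cleaves the interleukin-1 alpha precursor, fell from 136 ± 12.1 to 44.9 ± 7.92 CPM and from 545 ± 60.9 to 336 ± 46.4 CPM (limma adjusted p = 1.0e-06 and 4.4e-05). PYCARD, the inflammasome adaptor, was lower and CASP4, the inflammatory caspase, was higher; both were named after their values were seen. IL1B and IL1RN were at 0 in all libraries, and CASP1, also listed, was not among the measured genes.

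Other chemokines were scarce. Of 31 listed genes 20 were measured. Of those 20, 8 had no count in any library and 1 was tested. That was CXCL16, a membrane-bound chemokine, which passed the filter only through the control libraries and fell from 24.6 ± 11 to 3.92 ± 4.14 CPM (limma adjusted p = 0.00556), with overlap between the groups; it was named after its values were seen. Of 34 other cytokines listed 27 were measured. Of those 27, 8 had no count, among them IL6 and TNF, and 4 were tested. Of these 4, 2 were lower and 0 higher (median log2 change -0.55), too few to set against the 26.1% of all tested genes. MIF, a constitutive cytokine of many cells, fell from 1518 ± 188 to 968 ± 117 CPM and KITLG, the ligand of the KIT receptor, from 94.2 ± 15.0 to 38.4 ± 19.3 CPM (limma adjusted p = 3.0e-05 and 0.000448).

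Regulators of chemokine and cytokine genes were mostly higher, 18 of 22 tested, with 0 lower and a median log2 change of 1.97, beside 17.2% higher and 26.1% lower over all tested genes. EGR1, an immediate early factor, rose from 34.7 ± 4.87 to 1628 ± 271 CPM, and DDIT3, which encodes the stress factor CHOP, from 31.9 ± 11.1 to 1049 ± 34.0 CPM. JUN, an AP-1 component, rose from 30.5 ± 8.97 to 631 ± 39.3 CPM; none of these 3 overlapped between groups. Their limma adjusted p-values were 2.9e-18, 1.8e-15 and 1.3e-14. The NF-kB subunit gene NFKB2 rose from 5.26 ± 3.13 to 58.1 ± 10.4 CPM and RELB from 5.38 ± 3.6 to 35.9 ± 11.8 CPM, both named after their values were seen. NFKB1, RELA, TNFAIP3 and CHUK, also of the NF-kB pathway, were called higher with smaller changes (log2 0.82 to 1.83). The 4 regulators that were not called belong to that pathway too: REL, a subunit (log2 change 0.23), NFKBIA, the inhibitor (-0.50), BCL3, a cofactor (-0.76), and IKBKB, a kinase (0.92), with limma adjusted p-values from 0.159 to 0.628. The destabilisers of AU-rich messenger RNAs, ZFP36 and ZFP36L1, were also called higher. This list was chosen with earlier results of these data known.

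Below the LIF receptor, 3 of 9 tested signalling genes were lower and 0 higher (median log2 change -0.71). That share is near the 26.1% of all tested genes called lower and so no result about the list. BCL6 and PIAS3, neither of them called, passed the filter only through the control libraries. Of the 7 other genes 3 were lower and 0 higher (median -0.41), too few to set against that share. PTPN11, a phosphatase downstream of many receptors, fell from 581 ± 46.0 to 438 ± 38.0 CPM (limma adjusted p = 0.00248). The kinase gene PIM1 fell from 25.3 ± 8.80 to 8.80 ± 8.04 CPM (limma adjusted p = 0.0265) but was not called by edgeR (adjusted p = 0.0910). STAT3 was not called (limma adjusted p = 0.759), and SOCS3, a STAT3-induced inhibitor, had 10 counts in control and 4 in starved cells, too few for the test.

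**Figure D4:**
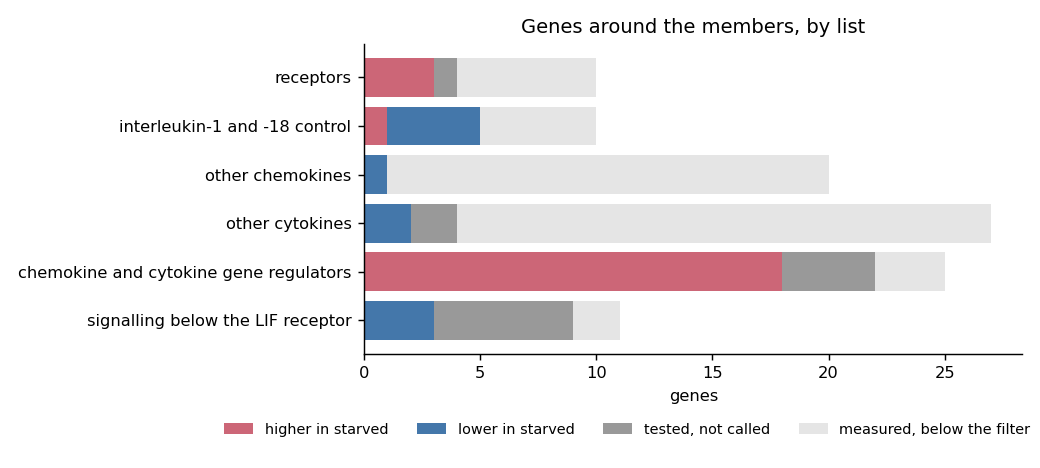
Number of measured genes in each list that were called higher, called lower, tested and not called, or below the filter (bars start at 0). Regulators were higher in 18 of 22 tested cases, beside 17.2% of all tested genes called higher. Signalling genes below the LIF receptor were lower in 3 of 9, near the 26.1% of all tested genes called lower. The lists were chosen with earlier results of these data known.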

How the data were processed

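Total RNA of AsPC-1 cells went into libraries of the transcripts' 3' ends (QIAseq UPX 3' Transcriptome), per the labels' protocols, and samples were grouped by title. The build is hg19, per the submitters' processing notes; for the aligner, counter, annotation release, molecular identifiers and strand setting, the sources used here give nothing. The deposited values are CPM: each column sums to 1000000, and 100% of values above 0 were whole multiples of the column's smallest value (relative tolerance 1e-06), which gave back whole counts. Replicate pairs within a group all differed beyond sampling noise.

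Group differences were fitted with limma 3.58.1 in R 4.3.3, using its trend option and two-sided tests, on log2(CPM + 1) without covariates, with a filter at a mean of 5 CPM; fold changes on that scale understate those of low genes. Exact permutation tests used all 252 groupings of the libraries on log2(CPM + 1). Pooled CPM ratios carry exact binomial 95% intervals. Alternatives were pseudocounts of 0.5 and 5, no filter, a filter at 20 CPM, TMM and quantile scaling, edgeR 4.0.16, DESeq2 1.42.0, a replicate block and leaving out libraries, among them control replicates 1 and 2 together, whose label index numbers break the even steps of the others'. The fits were tested on simulated data with known fold changes. These changes were set in genes whose control mean reached the filter, so the simulation does not speak for members near 0 in control cells. Named genes were all members; up to 3 called genes per list with the smallest p, no overlap and a mean of 20 CPM or more on the higher side; and the 3 genes most like each member with at least 100 counts, which was IL18 alone. A gene that this rule names is not reported here. The members and lists were chosen with earlier results of these data known.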

Additional observations from a re-analysis of the deposited data

Results flagged for a closer look

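Over 23 genes and both groups (46 sets of 5 libraries), a library stood far from the others of its group, by Dixon's test, in 2 sets. Both were control replicate 5, at 2.53 CPM of CXCL1 and 2.53 CPM of CXCL3 where the other 4 control libraries were at 0. Each of these values is 1 count. With 4 libraries at 0 any single count is set apart by that test, so the usual rate of chance flags, about 1 in 20, does not apply and the flags carry no further information.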

How the results depend on the processing

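Under 18 to 20 alternatives per gene, CXCL8, CXCL3, CXCL2, IL32 and IL18 stayed called in the same direction wherever they were tested, LIF stayed uncalled, and 0 members reversed. The log2 change of CXCL8 ran from 3.43 to 5.67, of CXCL3 from 2.40 to 5.07, of CXCL2 from 2.02 to 4.34, of IL32 from 2.29 to 4.37 and of IL18 from -1.60 to -1.37; the low ends of the rises came with a pseudocount of 5. CXCL5 (adjusted p from 0.0204 to 0.222) was called in 3 of 18. With a filter at 20 CPM the count of called members was 2 instead of 5, as 2 members were tested. At that filter 3856 of 7005 genes were called. The count of called members was 7 of 10 with edgeR on every gene with a count, an alternative chosen after seeing the data. No share over all genes was taken for that alternative, so the count of 7 gives no weight to the set. Same-numbered libraries showed no shared deviation (correlations of deviations from -0.0158 to 0.0227). At this depth counting noise can hide a shared deviation, so this cannot decide whether the numbers pair the libraries. With the replicate block 5 members and 4801 genes were called, against 5 and 4850. Quantile normalization called 2344 genes higher and 2505 lower, against 1929 and 2921. Sign flips within same-numbered pairs cannot give a p below 0.0625. Depth limits CXCL1, CXCL5, CCL20, LIF and IL1A, with 8 to 30 counts each over all libraries.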
